A study of Saccharomyces cerevisiae with 15 samples.

Results

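The 10 genes described here encode enzymes of the storage carbohydrates of budding yeast, Saccharomyces cerevisiae: GSY1, GSY2, GLC3, GPH1 and GDB1 of glycogen metabolism, TPS1, TPS2, TSL1 and NTH1 of trehalose metabolism, and PGM2, which supplies both. They were chosen by function, as probes carrying one of these symbols in the platform's probe table, and 10 of 6249 genes on the array were found. Earlier results of these data were known when the choice was made. The study set out to follow how yeast in mid-log growth answers starvation, stress and inhibition of the TORC1 kinase, alone and together. Cells of the W303 background, mating type a, were exposed for 20 minutes, and each of the 15 arrays compared 2 RNA samples labelled with Cy5 and Cy3.

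Wild-type cells (strain ACY044) had 7 arrays of a single treatment. There were 3 starvations, for nitrogen, for amino acids and for glucose (a shift to 0.1%), and 3 stresses, an osmotic one with 0.375 M KCl, heat at 42 °C and an oxidative one with 0.4 mM hydrogen peroxide, and the seventh array had 200 nM rapamycin, which inhibits TORC1. A further 3 arrays combined nitrogen with glucose starvation, glucose starvation with 200 nM rapamycin, and nitrogen starvation with 0.375 M KCl. The snf1 deletion strain (ACY509) had 4 arrays, in nitrogen starvation, 0.375 M KCl, 0.1% glucose and 0.02% glucose, each against mid-log cells of the same strain. The last array set mid-log snf1 cells against mid-log wild-type cells. Every condition had 1 array, so no value has a replicate error, and precision is limited by how many arrays a comparison holds. The deposited values are log ratios, taken here as log2 of treated over mid-log, and they measure a change in a gene's share of the labelled RNA, not its level. A change in the number of cells of one kind and a change in RNA per cell cannot be told apart.

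Glycogen is a branched glucose polymer kept in the cytosol. GSY1 and GSY2 encode the isozymes of glycogen synthase, which adds glucose from UDP-glucose, and GLC3 encodes the branching enzyme. GPH1 encodes glycogen phosphorylase, which releases glucose 1-phosphate, and GDB1 the debranching enzyme that works with it. Trehalose is a glucose disaccharide that protects proteins and membranes under stress. TPS1 encodes trehalose-6-phosphate synthase, TPS2 the phosphatase that completes the sugar, TSL1 a large subunit of the same complex, and NTH1 the neutral trehalase that splits it. PGM2 encodes the major phosphoglucomutase, which interconverts glucose 6-phosphate and glucose 1-phosphate and so serves synthesis and breakdown alike. Many of these genes are known targets of the stress activators Msn2 and Msn4, and Snf1, the yeast AMP-activated kinase, is known to be needed for normal glycogen accumulation.

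Between 717 and 1256 spots were listed at exactly 0 on 6 arrays, those of KCl, heat, rapamycin, the nitrogen and amino acid starvations and the mid-log strains, and these spots were taken as having no value. Among the 10 genes this removed GSY1 and TPS1 on the mid-log strain array and nothing else. SNF1, the deleted gene, was listed at 0 on that array, so the deletion could not be checked. On the other arrays of snf1 cells its probe gave 0.32 (nitrogen), 0.05 (KCl), 2.57 (0.1% glucose) and 0.95 (0.02% glucose), ratios within the deletion strain that check nothing. The peroxide array, with 842 blank spots, was the one array with treated cells in Cy3, and its sign was reversed, so a dye effect on it cannot be told apart from the treatment. Medians over the 4653 genes with a value on every array were within 0.1 of 0 except −0.12 for wild-type and for snf1 cells in 0.1% glucose, −0.22 without nitrogen and glucose and −0.19 without glucose with rapamycin.

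**Figure D1:**
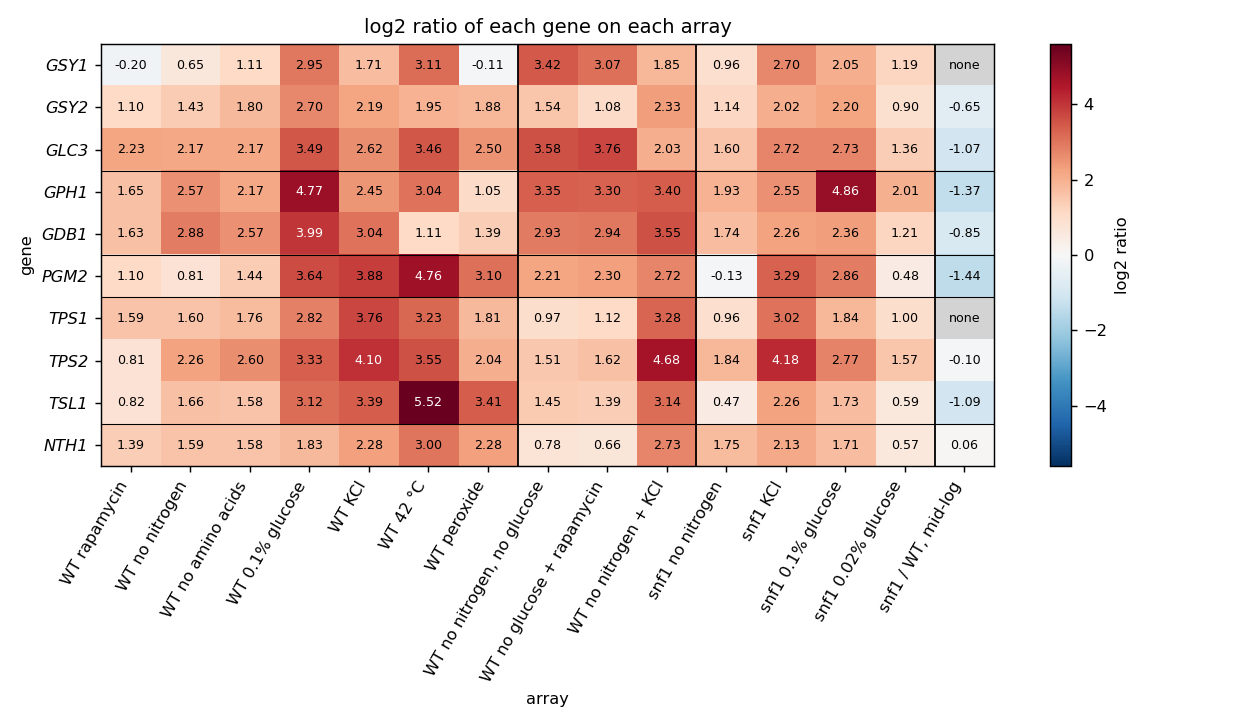
Log2 ratio of the 10 genes (rows) on the 15 arrays (columns), printed in each cell and coloured from blue (lower) to red (higher), with grey where a gene had no value; horizontal lines separate roles, and vertical lines separate wild-type single treatments, wild-type combined treatments, snf1 cells and the mid-log strain array. On the 14 treatment arrays 137 of 140 values are above 0. On the mid-log strain array 7 of the 8 values are below 0, where the median of all genes is −0.02.

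The storage carbohydrate genes were higher in treated cells almost everywhere. Over the 14 treatment arrays 137 of 140 values were above 0 and 123 of 140 were at least 2-fold higher (a log2 ratio of at least 1). The 3 values below 0 were GSY1 with rapamycin (−0.20) and in peroxide (−0.11), and PGM2 in nitrogen-starved snf1 cells (−0.13). For 8 of the 10 genes all 14 values were above 0, against 11.0% of all genes.

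Counted array by array, all 10 genes were at least 2-fold higher in wild-type cells under amino acid starvation, 0.1% glucose, KCl and heat shock, where 13.4%, 14.7%, 13.2% and 16.0% of all genes were. The count was 7 with rapamycin (11.1% of all genes), 8 in nitrogen starvation (14.7%) and 9 in peroxide (9.97%). On the combined arrays it was 8 without nitrogen and glucose (16.3%), 9 without glucose with rapamycin (13.2%) and 10 without nitrogen with KCl (18.4%). In snf1 cells it was 10 for KCl (12.3%) and for 0.1% glucose (17.2%), and 6 for nitrogen starvation (14.4%) and for 0.02% glucose (7.54%). With array medians subtracted the count became 10 without nitrogen and glucose (20.6%) and 7 for snf1 cells in 0.02% glucose (9.17%). It stayed the same on the other treatment arrays. On all 7 single-treatment arrays of wild-type cells 6 of 10 genes were at least 2-fold higher, against 2.1% of all genes, and 9 of 10 were above 0, against 17.3%.

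The first comparison asked for which of these genes the mean over the 7 single treatments of wild-type cells differed from 0. It does not require the same direction in each treatment. By limma, 8 of the 8 genes with a value on every array rose, where 22.9% of 4653 genes rose and 28.2% fell. Their median coefficient was 2.60 on the log2 scale, beside −0.06 over all genes. In a fit over the genes with a value on these 7 arrays, which admits TPS1 and GSY1, 10 of 10 rose, against 23.1% of 4862 genes. The spread in these fits is that between treatments, and the labels do not say whether arrays shared a mid-log culture.

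The sizes of the mean rise ranged from 1.32 for GSY1 to 2.79 for TSL1. GLC3 had the smallest adjusted p (coefficient 2.66, SE 0.204, limma adjusted p = 5.69e-05). TSL1 rose by 2.79 (SE 0.484, adjusted p = 0.0013), PGM2 by 2.68 (SE 0.476, adjusted p = 0.00146), TPS2 by 2.67 (SE 0.347, adjusted p = 0.000305) and GPH1 by 2.53 (SE 0.369, adjusted p = 0.000553). GDB1 (2.37), TPS1 (2.37), NTH1 (1.99) and GSY2 (1.86) rose with them, each above 0 on 7 of 7 arrays. GSY1, above 0 on 5 of 7 arrays, rose by 1.32 (SE 0.416, adjusted p = 0.0246). Its call was lost without the 0.1% glucose array (adjusted p = 0.0656), the KCl array (0.0593) or the heat shock array (0.0574).

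**Figure D2:**
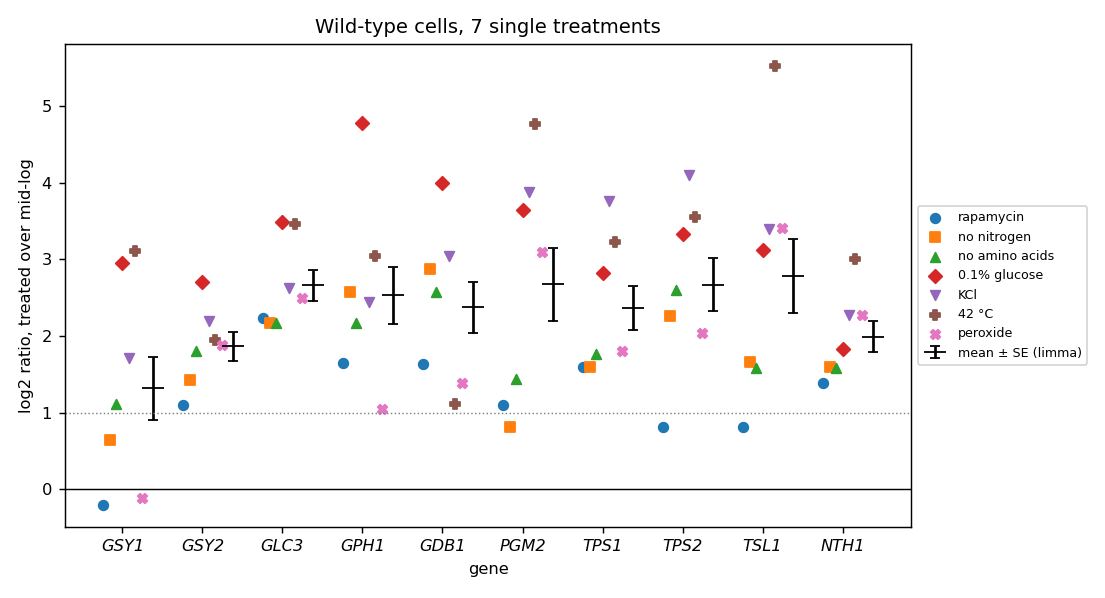
Log2 ratio (vertical axis) of each gene (horizontal axis) in wild-type cells on the 7 single-treatment arrays, 1 symbol per treatment, with the mean and SE over the 7 arrays from limma in black; the dotted line marks a 2-fold rise. GLC3, GSY2 and NTH1 are closely grouped, whereas TSL1 runs from 0.82 to 5.52 and GSY1 from −0.20 to 3.11.

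The 2 glycogen synthase isozyme genes behaved differently across treatments. GSY2 gave 1.10 for rapamycin, 1.43 for nitrogen and 1.80 for amino acid starvation, 2.70 for 0.1% glucose, 2.19 for KCl, 1.95 for heat shock and 1.88 for peroxide. All 7 values were at least 2-fold higher and spanned 1.60. GSY1 was at −0.20, 0.65, 1.11, 2.95, 1.71, 3.11 and −0.11 in the same order. It was therefore near 0 with rapamycin and in peroxide and highest at heat shock and in 0.1% glucose. GSY1 exceeded GSY2 on 2 of these arrays, by 0.25 in 0.1% glucose and by 1.16 at heat shock, and was lower by most in peroxide, with a difference of −1.99.

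GLC3, for the branching enzyme, had the narrowest range of the 10 genes in wild-type single treatments. Its values were 2.23 for rapamycin, 2.17 for nitrogen and 2.17 for amino acid starvation, 3.49 for 0.1% glucose, 2.62 for KCl, 3.46 for heat shock and 2.50 for peroxide. It was the member with the highest ratio on the rapamycin array, where TPS2 (0.81) and TSL1 (0.82) were among the lowest.

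The breakdown genes GPH1 and GDB1 were highest in low glucose. GPH1 gave 1.65 for rapamycin, 2.57 for nitrogen and 2.17 for amino acid starvation, 4.77 for 0.1% glucose, 2.45 for KCl, 3.04 for heat shock and 1.05 for peroxide. Its 27.3-fold value in 0.1% glucose ranked 35 of 6249 genes on that array. GDB1 was at 1.63, 2.88, 2.57, 3.99, 3.04, 1.11 and 1.39 in the same order. The 2 genes were within 0.78 of each other on 6 of the arrays but parted at heat shock, where GPH1 exceeded GDB1 by 1.93.

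PGM2 and the trehalose genes were highest under stress. PGM2 gave 1.10 for rapamycin, 0.81 for nitrogen and 1.44 for amino acid starvation, 3.64 for 0.1% glucose, 3.88 for KCl, 4.76 for heat shock and 3.10 for peroxide. TSL1 was at 0.82, 1.66, 1.58, 3.12, 3.39, 5.52 and 3.41 in the same order. At heat shock TSL1 was 45.9-fold higher, rank 20 of 5193 genes with a value, and PGM2 was 27.1-fold higher, rank 27.

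TPS1 and TPS2, the enzymes that make trehalose, were both highest in KCl. TPS1 gave 1.59 for rapamycin, 1.60 for nitrogen and 1.76 for amino acid starvation, 2.82 for 0.1% glucose, 3.76 for KCl, 3.23 for heat shock and 1.81 for peroxide. TPS2 was at 0.81, 2.26, 2.60, 3.33, 4.10, 3.55 and 2.04 in the same order. NTH1, which breaks trehalose down, was at 1.39, 1.59, 1.58, 1.83, 2.28, 3.0 and 2.28, highest at heat shock. With 1 array per condition, the order of neighbouring values in these series was not tested.

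Synthesis and breakdown genes were then compared on each array, as the median of GSY1, GSY2, GLC3, TPS1, TPS2 and TSL1 minus the median of GPH1, GDB1 and NTH1. This is a description of chosen genes and carries no test. With both pathways pooled, synthesis was below breakdown in the starvations, at −0.94 for nitrogen, −0.39 for amino acids and −0.96 for 0.1% glucose. Synthesis was also below breakdown with rapamycin (−0.67). It was above breakdown under the stresses, at 0.56 for KCl, 0.35 for heat shock and 0.57 for peroxide. In snf1 cells the same pooled quantity was −0.70 for nitrogen, 0.45 for KCl and −0.24 for 0.1% glucose. These signs match those of wild-type cells, but within a pathway not all did. Glycogen in KCl was at −0.555 in wild-type cells and 0.295 in snf1 cells. Trehalose in nitrogen starvation was at 0.07 and −0.79 in the same order. The signs matched in the other pairs of pathway and treatment. On the combined arrays the pooled value was −1.41 without nitrogen and glucose, −1.44 without glucose with rapamycin and −0.67 without nitrogen with KCl. The first 2 are the lowest pooled values of the 14 treatment arrays, but neither pathway alone shows such a gap there. Without nitrogen and glucose, synthesis was above breakdown for glycogen (0.28) and for trehalose (0.67). Without glucose with rapamycin the values were −0.05 and 0.73. The pooled value without nitrogen with KCl has the opposite sign to KCl alone. The median over the 7 arrays was −0.39 (SD 0.687, n = 7 treatments), so the difference was smaller than the spread between treatments.

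The split differed between the pathways, and the pooled signs did not hold in each. Glycogen synthesis was below breakdown in all the starvations. Trehalose synthesis was above it there, by 0.07 for nitrogen, 0.18 for amino acids and 1.29 for 0.1% glucose. Under the stresses, synthesis was below breakdown for glycogen in KCl (−0.555) and for trehalose in peroxide (−0.24), and above it otherwise. Among the 7 single treatments, glycogen breakdown exceeded synthesis by most in 0.1% glucose (medians 4.38 and 2.95) and in nitrogen starvation (2.73 and 1.43), and synthesis exceeded breakdown at heat shock (3.11 against 2.08) and in peroxide (1.88 against 1.22). For trehalose, synthesis exceeded breakdown by most, among the same arrays, in KCl (3.76 against 2.28) and 0.1% glucose (3.12 against 1.83). In 0.1% glucose the pathways thus ran opposite ways, at −1.43 for glycogen and 1.29 for trehalose. The trehalose value rests on 1 breakdown gene, NTH1. Among the combined arrays the glycogen gap was as wide with nitrogen starvation and KCl (−1.45, medians 2.03 and 3.48).

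**Figure D3:**
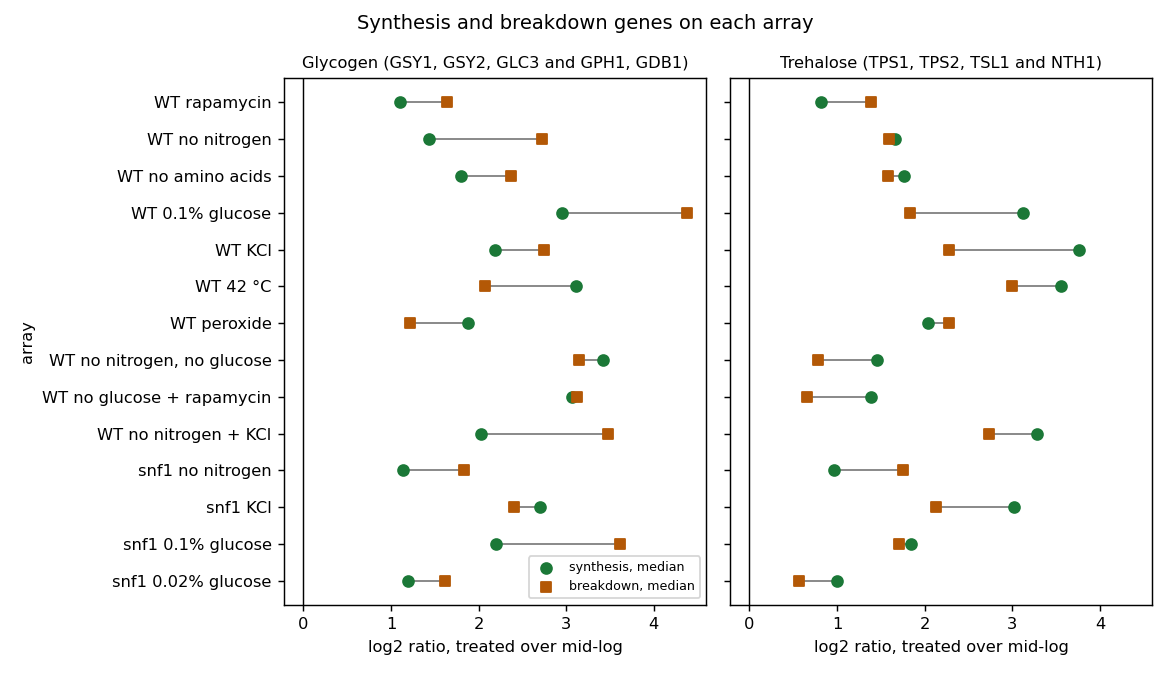
Median log2 ratio (horizontal axis) of synthesis genes (green circles) and breakdown genes (orange squares) on the 14 treatment arrays, for glycogen on the left and trehalose on the right. In wild-type cells in 0.1% glucose the glycogen breakdown genes stand to the right of the synthesis genes (4.38 and 2.95), and the trehalose breakdown gene to the left (1.83 and 3.12).

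The next comparison set 3 starvations (nitrogen, amino acids and 0.1% glucose) against 3 stresses (KCl, heat shock and peroxide). TSL1 and NTH1 were the members whose groups did not overlap. TSL1 lay between 1.58 and 3.12 in starvation and between 3.39 and 5.52 under stress, and NTH1 between 1.58 and 1.83 and between 2.28 and 3.0. Of all genes 9.63% had starvation values wholly below stress values, and 5.72% wholly above, where 0 members were. Limma called 0 of the 8 genes tested and 0 of all 4653 genes (0.0% in each direction), with 3 members and 470 genes at an unadjusted p under 0.05. Without the 0.1% glucose array 43 genes were called higher and 5 lower, none of them a member.

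The largest member differences, starvation minus stress, were −1.99 for TSL1 (SE 0.677, limma adjusted p = 0.433) and −1.95 for PGM2 (SE 0.757, adjusted p = 0.473). NTH1 was at −0.85 (SE 0.31, adjusted p = 0.457). GDB1 (1.30) and GPH1 (0.99) had the opposite sign, with adjusted p of 0.523 and 0.698. GSY2 (−0.03) and, in the fit that admits it, GSY1 (0.00) had the same mean in both groups to within a few hundredths.

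Combined treatments were set beside the single ones as values, without a test. When glucose was withdrawn with nitrogen, or together with rapamycin, GSY1 and GLC3 parted from the other 8 genes, trehalose and glycogen genes alike. The labels give no glucose level for these 2 arrays and call the withdrawal total, so they differ in dose from the 0.1% glucose array.

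GSY1 and GLC3 kept ratios at or above those in 0.1% glucose. Of all 6249 genes, 3153 were above theirs without nitrogen and glucose and 3010 without glucose with rapamycin. GSY1 was at 3.42 without nitrogen and glucose and 3.07 without glucose with rapamycin, against 2.95 in 0.1% glucose, and GLC3 was at 3.58 and 3.76 against 3.49. The other 8 genes were at least 2-fold below their 0.1% glucose value on both arrays. That was 8 of 10 on each array, where 7.62% and 9.06% of all genes were as much lower. Some were just past the limit, GDB1 at −1.06 and −1.05 from its 0.1% glucose value and NTH1 at −1.05 and −1.17. Both arrays had lower medians over genes (−0.22 and −0.19 against −0.12) and were narrower (SD 1.07 and 0.979 against 1.20). The part of these differences in the count was not tested.

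The trehalose genes were among the lowest there, next to GSY2. TPS1 was at 0.97 and 1.12 against 2.82, TPS2 at 1.51 and 1.62 against 3.33, and TSL1 at 1.45 and 1.39 against 3.12. NTH1 was at 0.78 and 0.66 against 1.83, and PGM2 at 2.21 and 2.30 against 3.64. The breakdown genes of glycogen stayed higher, GPH1 at 3.35 and 3.30 against 4.77 and GDB1 at 2.93 and 2.94 against 3.99, while GSY2 was at 1.54 and 1.08 against 2.70.

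Against the partner treatment alone, 3 genes were at least 2-fold higher without nitrogen and glucose than without nitrogen (13.6% of all genes), and 5 without glucose with rapamycin than with rapamycin (8.19%). GSY1 was 2.77 above its nitrogen starvation value and 3.27 above its rapamycin value, and GLC3 1.41 and 1.53 above. PGM2 was 1.40 and 1.20 above, and GPH1 (1.65) and GDB1 (1.31) joined on the rapamycin side. TPS1 was 0.63 below its nitrogen starvation value and 0.47 below its rapamycin value. TPS2 and TSL1 differed between the partners, at −0.75 and −0.21 from nitrogen starvation and 0.81 and 0.57 from rapamycin.

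With nitrogen starvation and KCl together, the genes went both ways from KCl alone, from PGM2 (−1.16) to GPH1 (0.95), with a median difference of 0.14 (SD 0.643 over the 10 genes). There were 0 genes at least 2-fold higher and 1, PGM2, at least 2-fold lower (2.72 against 3.88). Of all genes 7.27% and 10.5% were as much higher and lower, shares close to those of the members. Against nitrogen starvation alone, 6 of 10 genes were at least 2-fold higher, where 4.89% of all genes were. TPS2 reached 4.68, TPS1 3.28, GDB1 3.55 and GPH1 3.40, and GLC3, at 2.03, was the one gene below its nitrogen starvation value (2.17).

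**Figure D4:**
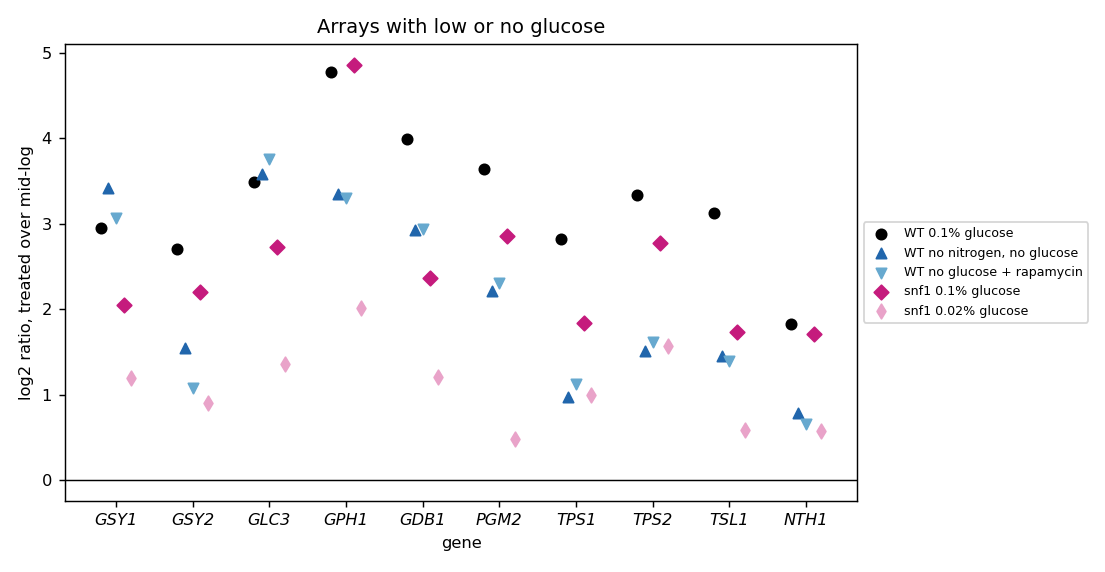
Log2 ratio (vertical axis) of each gene (horizontal axis) on the 5 arrays with low or no glucose, wild type in black and blue and snf1 in pink. GSY1 and GLC3 of wild-type cells stay between 2.95 and 3.76 on all 3 wild-type arrays, whereas TPS1, TPS2, TSL1 and NTH1 are lower on both arrays without glucose than in 0.1% glucose.

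The snf1 deletion was first compared with wild type in mid-log growth. On the single array for this, 7 of the 8 genes with a value were lower in snf1 cells. Of the 8, 4 were at least 2-fold lower, where 1.62% of all genes were. The median was −0.96 over these 8 genes and −0.02 over the 5047 genes with a value. PGM2 was at −1.44, GPH1 at −1.37, TSL1 at −1.09, GLC3 at −1.07, GDB1 at −0.85 and GSY2 at −0.65. TPS2 (−0.10) and NTH1 (0.06) were near 0. Glycogen genes of both directions were therefore on the low side together, with medians of −0.86 for synthesis (2 genes with a value) and −1.11 for breakdown.

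The response of each strain to treatment, measured against its own mid-log cells, was then compared in the 3 treatments both had. In a limma fit over 6 arrays with treatment as a block, 0 of 8 members and 0 of 4653 genes were called (0.0% in each direction), with 3 members and 626 genes at an unadjusted p under 0.05. Without the nitrogen pair 17 genes were called higher and 27 lower, none of them a member. The smallest member p belonged to TSL1, with a difference, snf1 minus wild type, of −1.24 (SE 0.185, 95% interval −1.69 to −0.79, adjusted p = 0.149). GDB1 had −1.18 (SE 0.228, interval −1.74 to −0.63, adjusted p = 0.274) and PGM2 −0.77 (SE 0.189, interval −1.23 to −0.31, adjusted p = 0.31). TPS1, in the fit that admits it, had −0.79 (SE 0.191, interval −1.25 to −0.32, adjusted p = 0.291); that fit called 0 of 10 members and 1 gene lower of 5401 (0.0185%).

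TSL1 had the lower response in snf1 cells in each treatment. It was at 0.47 in snf1 and 1.66 in wild type in nitrogen starvation, 2.26 and 3.39 in KCl, and 1.73 and 3.12 in 0.1% glucose. GDB1 was at 1.74 and 2.88, 2.26 and 3.04, and 2.36 and 3.99 in the same order. PGM2 was at −0.13 and 0.81, 3.29 and 3.88, and 2.86 and 3.64. With TPS1 and GSY2, 5 of 10 genes were lower in snf1 in all 3 treatments, against 17.2% of all genes.

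NTH1 gave nearly the same log2 response in both strains, and GPH1 did so in KCl and 0.1% glucose. GPH1 was at 4.86 in snf1 and 4.77 in wild-type cells in 0.1% glucose, and at 2.55 and 2.45 in KCl, though at 1.93 and 2.57 in nitrogen starvation. Its value in snf1 cells in 0.1% glucose ranked 6 of 6249 genes. NTH1 was at 1.75 and 1.59 in nitrogen starvation, 2.13 and 2.28 in KCl, and 1.71 and 1.83 in 0.1% glucose. The fitted differences were −0.15 for GPH1 (interval −0.70 to 0.40, adjusted p = 0.782) and −0.04 for NTH1 (interval −0.49 to 0.42, adjusted p = 0.936).

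TPS2, GLC3 and GSY1 differed in direction between treatments, as did GPH1 and NTH1 by the values above. TPS2 was at 1.84 in snf1 and 2.26 in wild type in nitrogen starvation, 4.18 and 4.10 in KCl, and 2.77 and 3.33 in 0.1% glucose. GLC3 was at 1.60 and 2.17, 2.72 and 2.62, and 2.73 and 3.49 in the same order. GSY1 was at 0.96 and 0.65, 2.70 and 1.71, and 2.05 and 2.95, so it was the member with the largest excess in snf1 cells, 0.99 in KCl. Counted over all 10 genes, the response was lower in snf1 for 8 in nitrogen starvation, 6 in KCl and 9 in 0.1% glucose, against 44.8%, 43.0% and 46.9% of all genes. It was at least 2-fold lower for 2 genes in nitrogen starvation (3.67% of all genes), 1 in KCl (2.87%) and 2 in 0.1% glucose (6.29%).

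The counts in 0.1% glucose and KCl move with the spread of the arrays. In 0.1% glucose the SD over the 4653 genes was 1.20 on the wild-type array and 0.937 on the snf1 array. When each array was divided by its SD, an alternative chosen after seeing the data, 5 of 10 genes were lower in snf1 in 0.1% glucose. GDB1, TSL1, TPS1 and GSY1 stayed lower on that scale, by 0.82, 0.76, 0.40 and 0.28 SD, and GLC3 by 0.01 SD. The other 5 were higher in snf1, GPH1 by 1.20 SD, the largest member value in either direction there, NTH1 by 0.29, TPS2 by 0.17, GSY2 by 0.09 and PGM2 by 0.01 SD. In KCl the count became 4, with the members' median turning from −0.16 on the log2 scale to 0.12 SD. In nitrogen starvation, with an SD of 1.22 in wild type and 1.28 in snf1, the count stayed 8. TSL1, GDB1 and TPS1 were then the genes lower in all 3 treatments, 3 of 10 against 15.6% of all genes.

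**Figure D5:**
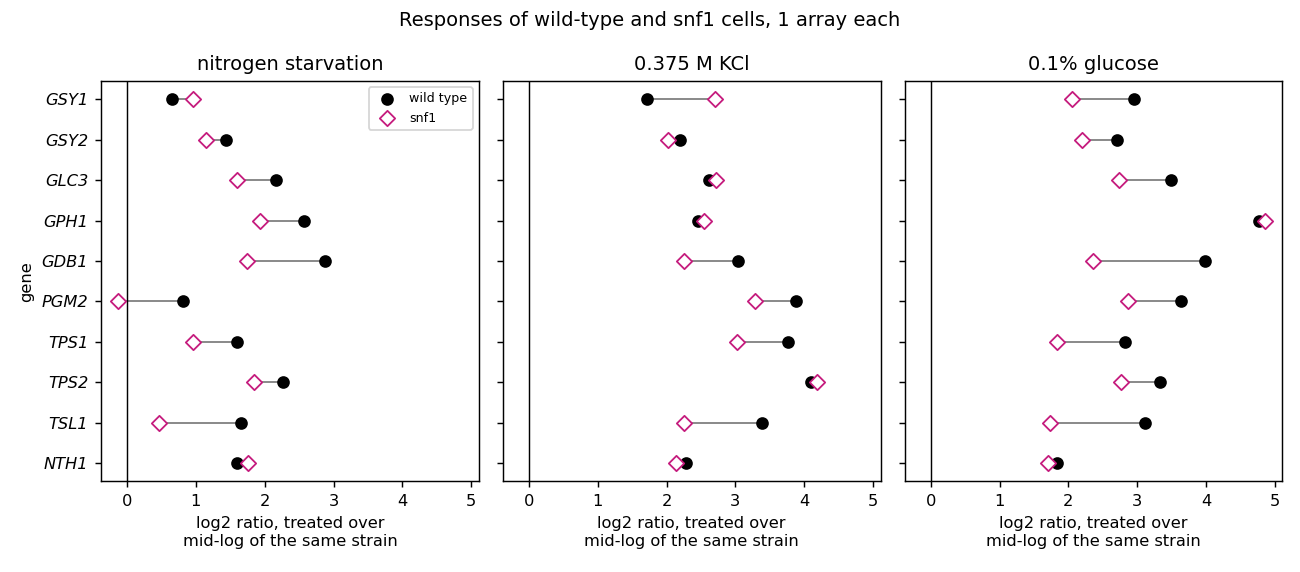
Log2 ratio of treated over mid-log cells of the same strain (horizontal axis) for each gene (vertical axis), in wild-type (filled circles) and snf1 cells (open diamonds), 1 array each, in 3 treatments. TSL1, GDB1, PGM2, TPS1 and GSY2 are lower in snf1 in all 3 panels, and NTH1 differs by at most 0.16.

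The mid-log difference adds to the difference in response. Adding the mid-log strain ratio to the response difference gives an estimate of treated snf1 over treated wild-type cells, which holds only if the mid-log cultures were alike across arrays. By this sum TSL1 was at −2.28 in nitrogen starvation, −2.22 in KCl and −2.48 in 0.1% glucose, PGM2 at −2.38, −2.03 and −2.22, and GDB1 at −1.99, −1.63 and −2.48. GPH1, whose response was nearly the same in both strains in KCl and 0.1% glucose, stood at −2.01, −1.27 and −1.28. In all, 5, 4 and 6 of the 8 genes were at least 2-fold lower, where 10.7%, 7.98% and 12.6% of all genes were. NTH1 (0.22, −0.09 and −0.06) and TPS2 (−0.52, −0.02 and −0.66) were not.

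In snf1 cells all 10 genes were lower in 0.02% than in 0.1% glucose, and 8 were at least 2-fold lower, where 52.0% and 9.65% of all genes were. GPH1 was at 2.01 against 4.86, PGM2 at 0.48 against 2.86, GLC3 at 1.36 against 2.73 and GSY2 at 0.90 against 2.20. GSY1 (1.19 against 2.05) and TPS1 (1.00 against 1.84) changed least. The whole 0.02% array was narrower, with an SD over genes of 0.684 against 0.937, and its part in this difference was not tested. There was no wild-type array in 0.02% glucose.

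Other genes of the pathway were followed as a list of 29, of which 27 were found by name and 24 had a value on every array. By limma 11 of the 24 rose over the 7 single treatments and 0 fell, with a median coefficient of 0.54, beside 22.9% higher over all genes. They included the glycogenin gene GLG1, which primes glycogen (1.53, SE 0.257, adjusted p = 0.0011), but GLG2, the other glycogenin gene, missed the threshold (0.54, adjusted p = 0.0601). GLG2 passed without the heat shock array (0.73, adjusted p = 0.00902) and with array medians subtracted (0.62, adjusted p = 0.04). GAC1, which targets the Glc7 phosphatase to glycogen synthase, rose by 2.00, PCL8, a cyclin of the Pho85 kinase that acts on the synthase, by 0.88, and GLC8, a regulator of Glc7, by 0.71. GLC7 itself was at −0.11 (adjusted p = 0.616) and PHO85 at 0.24 (adjusted p = 0.482), or 0.51 without heat shock (adjusted p = 0.0408).

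Genes that feed the pathway rose with it. GLK1, for glucokinase, rose by 2.52, HXK1, for a hexokinase isozyme, by 2.20 and UGP1, which makes UDP-glucose, by 1.99. Their counterparts did not pass. HXK2, the other hexokinase isozyme gene, was at −0.65 (adjusted p = 0.0502), passing as lower without 0.1% glucose (−0.81, adjusted p = 0.0261) or heat shock (−0.77, adjusted p = 0.0333). PGM1, the minor phosphoglucomutase gene, was at −0.16 (adjusted p = 0.416). Among the remaining trehalose enzymes ATH1, the acid trehalase gene, rose by 1.59, NTH2, the second neutral trehalase gene, by 1.07 and TPS3, a subunit related to Tsl1, by 1.04. Over the 7 wild-type single treatments TPS3 lay between 0.53 and 1.35, a narrower range than that of TSL1.

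GAC1 resembled GSY1 and GLC3 in total glucose withdrawal. It was at 4.52 without nitrogen and glucose and 4.93 without glucose with rapamycin, against 3.63 in 0.1% glucose. PIG2 (0.86 and 0.59 against −0.59), HOG1 (0.54 and 0.76 against 0.22) and PGM1 (−0.39 and −0.17 against −0.47) were also above their 0.1% glucose values. Among the regulators, MSN2 (0.20, limma adjusted p = 0.204), MSN4 (0.02, adjusted p = 0.932), HOG1 (0.08, adjusted p = 0.615) and GIS1 (0.56, adjusted p = 0.0511) did not pass. A mean near 0 was not a steady value, since MSN4 ran from −0.85 at heat shock to 0.99 in 0.1% glucose. GIS1 did pass without rapamycin (0.73, adjusted p = 0.0147) and with medians subtracted (0.64, adjusted p = 0.0352). RIM15 rose by 0.43 (adjusted p = 0.0273). The RIM15 call was lost without any one of the rapamycin, nitrogen, amino acid, 0.1% glucose and KCl arrays, at adjusted p of 0.0517 to 0.0834. Between strains limma called 0 of the 24 genes, with 5 at an unadjusted p under 0.05.

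Over the 14 treatment arrays the genes followed one another to different degrees, given here as Pearson correlations without a test, since arrays may share mid-log RNA. PGM2 (r = 0.86) and GSY2 (r = 0.85) were closest to the mean of the other 9, and GDB1 was farthest (r = 0.39). The 5 other named genes most like the mean of all 10, out of 3458, were PHM7 (r = 0.92), TFS1 (0.88), DDR2 (0.86), MCR1 (0.85) and GAD1 (0.84). PHM7 ranged from 1.08 in nitrogen-starved snf1 cells to 6.62 at heat shock. The mean of the 10 genes was highest at heat shock (3.27) and in 0.1% glucose (3.26) and lowest in snf1 cells in 0.02% glucose (1.09).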

How the data were processed

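The deposited values are, per the labels, ratios of Cy5 over Cy3 on 2-colour arrays, given by the authors to 2 decimals. The deposited unit was taken as log2 from the extremes (−7.18 and 9.47), and no base, background correction, normalisation or spot filter is stated in the labels. No column was left unused. Of 6256 gene probes 4075 had 1 symbol, 0 had several and 2181 had none, 129 symbols were brought up to date, and probes of 1 gene were averaged. limma 3.58.1 (R 4.3.3) fitted the ratios, and its p-values were adjusted by Benjamini and Hochberg's method across every gene tested, with calls under 0.05. The named genes were the 10 members, the list of pathway genes, and the 5 genes most like the members. IGD1 and PGM3 were on that list but were not found by name. The members and lists were chosen with earlier results of these data known. Each script's fit was tested on simulated data. Alternatives covered zeros, centring, the gene filter, robust variances, the block and each treatment left out.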

Additional observations from a re-analysis of the deposited data

Results flagged for a closer look

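In nitrogen starvation PGM2 was above its mid-log value in wild-type cells (0.81) and below it in snf1 cells (−0.13), a difference, snf1 minus wild type, of −0.94. With 1 array on each side this opposite direction was not tested in nitrogen starvation alone. Over the 3 shared treatments the limma difference for PGM2 was −0.77 (SE 0.189, adjusted p = 0.31).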

How the results depend on the processing

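No member lost its call in the common response under kept zeros, subtracted medians, another gene filter or robust variances. The count of members called stayed 8 of 8 when each treatment was left out. TPS1 and GSY1 come from a separate fit, in which TPS1 kept its call each time and GSY1 lost it without 0.1% glucose, KCl or heat shock. Over all genes, leaving out 1 treatment gave 0 to 17 higher and 0 to 27 lower calls between strains, the highest without nitrogen starvation, and 0 to 43 higher and 0 to 5 lower calls between starvation and stress, the highest without 0.1% glucose. A gene filter on the arrays of the fit alone gave 1 lower call between strains. When each treatment was left out in turn, values that passed no threshold changed sign: GPH1 between strains ran from −0.28 to 0.10 (positive without nitrogen) and NTH1 from −0.14 to 0.02 (positive without KCl or 0.1% glucose), GSY2 between starvation and stress from −0.39 to 0.24 (positive without nitrogen, amino acid or KCl arrays) and GLC3 from −0.69 to 0.05 (positive without heat shock), and MSN4 in the common response from −0.14 to 0.17 (negative without nitrogen, amino acid or 0.1% glucose arrays). The cause was not tested. With each array divided by its SD, 5 members had a lower response in snf1 in 0.1% glucose, not 9, 4 in KCl, not 6, and 3 in all 3 treatments, not 5. Fitting strains without the treatment block called 0 members. No paired analysis was possible by replicate because each condition had 1 array.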
